A study of Mus musculus with 12 samples.

Results

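The genes described here are 10 components of Hedgehog signalling and notochord regulation, chosen by symbol: the ligands Shh and Ihh, the co-receptors Cdon and Boc, the receptor Ptch1, the signal transducer Smo, the transcription factor Gli1, the ligand-binding inhibitor Hhip, and the notochord transcription factors Foxa2 and Noto. All 10 were found among the 19505 genes with a name on the array, each as a single transcript cluster, the array's unit of measurement. RNA was taken from the annulus fibrosus (AF), the fibrous ring of the intervertebral disc, and the nucleus pulposus (NP), its gel-like core, in lumbar discs of 12-month-old C57BL/6 mice. In each tissue 3 wild-type (WT) samples stand beside 3 samples of TonEBP +/- mice, which are haploinsufficient for TonEBP, the osmosensitive transcription factor encoded by Nfat5, and no group was treated. Each sample pools the disc tissue of 1 animal, the labels do not say whether an AF and an NP sample came from the same mouse, and sex and batch are not given. Signals are log2 intensities from 12 arrays, and precision is limited by having 3 arrays a group.

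Hedgehog ligands are secreted proteins that bind Ptch1, which otherwise holds Smo inactive. Cdon and Boc present the ligand to Ptch1, and active Smo, working in the primary cilium, leads to transcription through the Gli factors. Gli1, Ptch1 and Hhip are themselves induced by the pathway, and Ptch1 and Hhip restrain it by binding ligand. In the embryo the notochord secretes Shh, Foxa2 and Noto act in its formation, and NP cells descend from it.

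The GLI and TonE motifs described below were searched for near the start sites of these genes. The RefSeq promoter windows of GRCm38.p6 were used, 300 bases long, of which 7 members had 1 or more, 9 windows in all (Ihh, Foxa2, Smo, Noto, Hhip, Cdon and Ptch1). The 250 bases before the start site are shown for Cdon, the member that changed most between the genotypes, and for Hhip, the member that differed most in the opposite direction between the tissues. They lie at chr9:35451826-35452075 on the plus strand for Cdon and at chr8:80058009-80058258 on the minus strand for Hhip, and are given 5′ to 3′ on the gene's strand, in lower case because neither motif searched was found in them.
Cdon: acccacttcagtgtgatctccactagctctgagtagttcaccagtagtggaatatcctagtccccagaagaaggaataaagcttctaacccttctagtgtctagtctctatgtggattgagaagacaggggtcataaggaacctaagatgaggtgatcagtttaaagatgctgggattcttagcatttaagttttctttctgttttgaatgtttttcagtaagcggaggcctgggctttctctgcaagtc
Hhip: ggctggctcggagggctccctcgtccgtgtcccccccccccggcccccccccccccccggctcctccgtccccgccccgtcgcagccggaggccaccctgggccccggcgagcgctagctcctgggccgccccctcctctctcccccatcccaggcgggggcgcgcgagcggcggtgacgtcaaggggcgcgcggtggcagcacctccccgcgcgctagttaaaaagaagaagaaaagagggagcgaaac
The base composition of the pair differs, with 42.8% G and C in the Cdon stretch and 76% in that of Hhip. The GLI binding motif searched, GACCACCCA on both strands, was in none of the 9 windows, against 0.253% of all 32851 promoter windows. With at most 1 mismatch, 1 of the 9 windows, a Foxa2 window, held it, against 6.74% of all windows. The TonE consensus, the motif bound by TonEBP, was in none of the 9, against 4.96% of all windows. A match, or its absence from these windows, describes only these letters.

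The tissue labels were checked against markers. The 8 NP markers averaged 16.1 to 16.3 log2 on NP arrays and 10.4 to 12.8 on AF arrays, and 7 of the 8 were higher in NP, with Aqp1 lower. The 9 AF and tendon markers averaged 11.5 to 12.5 in AF and 7.66 to 8.55 in NP. In WT 6 of the 9 were lower in NP and 2, Fmod and Scx, were higher. The tendon regulators Scx and Mkx and the tendon marker Tnmd were above background on 0 of the 12 arrays. Leaving out calls on signals below background, 5 were lower and 1, Fmod, was higher. The 6 marrow markers averaged 14.8 to 16.7 in AF, so the AF samples hold more than annulus cells. AF array 1 of WT held the most NP marker signal of the AF arrays, with Krt19 at 11.37 log2 against 6.25 to 8.27 on the other AF arrays. AF array 3 of TonEBP +/- had the widest interquartile range of the AF arrays, 3.11 log2. Nfat5, the targeted gene, read 7.70, 8.69 and 9.93 log2 in AF of WT and 8.91, 8.94 and 8.74 in AF of TonEBP +/-, and in NP it read 9.12, 8.80 and 8.34 in WT and 9.06, 9.62 and 9.09 in TonEBP +/-. Its genotype difference was 0.09 log2 in AF (95% CI -0.83 to 1.01) and 0.50 in NP (95% CI -0.17 to 1.18), neither passing the test, and where its probes lie relative to the deletion is not known, so these values may say nothing of the labels.

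Each array carries 23 background probe sets, and their 95th percentile, at 7.73 to 7.98 log2 on AF arrays and 7.11 to 7.33 on NP arrays, served as its background level. By that level 3 of the 10 members, Cdon, Boc and Ptch1, were above background on all 12 arrays. Shh was so on 11, Noto on 9, Hhip on 6, Gli1 on 5 and Smo on 2. Ihh and Foxa2 were above it on 0 arrays, and no fold is given for them. A difference here was called where the adjusted p of limma, taken over all 22206 clusters, was under 0.05.

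**Figure D1:**
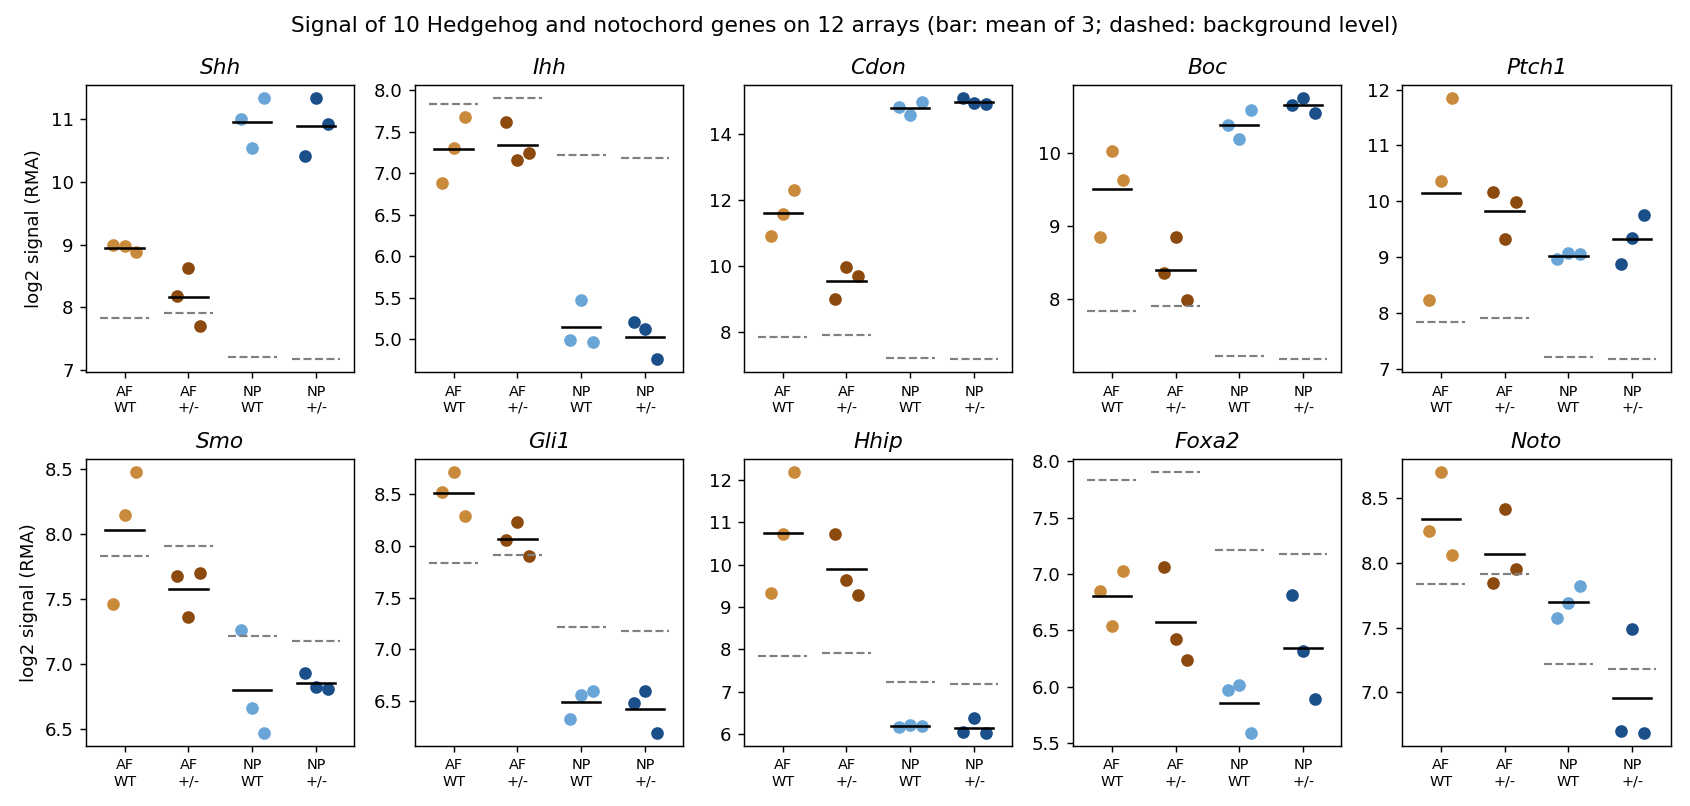
Log2 signal (vertical axis, 1 scale per gene) of the 10 genes on each array, by tissue and genotype; points are arrays, bars the mean of 3, and dashed lines the mean background level of the group. Shh, Cdon and Boc sit higher in NP than in AF, Gli1 and Hhip sit higher in AF, and Ihh and Foxa2 lie below the background level throughout.

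The first question the design poses for these genes is how they differ between the tissues. In WT mice, transcripts of the ligand Shh and of the co-receptors Cdon and Boc were higher in NP than in AF, 6.70-, 15.3- and 3.07-fold. Gli1 and Hhip, both induced by Hedgehog signalling elsewhere, were lower in NP, by at least 1.47- and 6.89-fold. Ptch1, Smo, Foxa2 and Noto did not pass the test. In all, 6 of 10 members were called, 3 higher and 3 lower, beside 64.7% of all clusters called, 33.6% higher and 31.1% lower, so the share of members called is near the background and says nothing particular about them. In bulk tissue, more cells of a type and more RNA per cell cannot be told apart. Tissue differences are given after subtracting each array's median, because as deposited the median cluster was 0.84 log2 lower in NP than in AF in WT and 0.75 lower in TonEBP +/-. With the subtraction these shifts were -0.10 and -0.06. It leaves the interquartile range as it was, 2.36 to 3.11 log2 on AF arrays and 3.61 to 3.80 on NP arrays, so the folds depend on the scaling. The share of called clusters that were higher in NP moved with it, from 52.0% to 28.3% as deposited in WT and from 55.1% to 26.9% in TonEBP +/-.

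Among the ligands, Shh read 10.99, 10.53 and 11.33 log2 in NP of WT and 8.99, 8.97 and 8.88 in AF of WT. In TonEBP +/- mice it read 10.41, 11.33 and 10.91 in NP and 8.18, 8.62 and 7.71 in AF. All 6 NP arrays lay above all 6 AF arrays, and the order of the group means was NP of WT, NP of TonEBP +/-, AF of WT, AF of TonEBP +/-, with the NP groups overlapping. The difference between NP and AF was 2.74 log2 in WT (SE 0.298, limma adjusted p = 9.08e-07) and 3.40 in TonEBP +/- (SE 0.298, adjusted p = 6.51e-08), which is 10.6-fold. Over the alternatives the Shh difference stayed called and ran from 1.69 to 2.95 log2 in WT and from 2.58 to 3.64 in TonEBP +/-. Ihh, the ligand of growth plate cartilage, read 6.88 to 7.68 in WT and 7.16 to 7.62 in TonEBP +/- in AF, and 4.96 to 5.47 and 4.76 to 5.21 in NP of the same genotypes. All of these readings are below background, so the calls in Ihh (-1.41 and -1.62 log2, adjusted p = 0.000217 and 6.07e-05) rest on signals that do not show the transcript in either tissue.

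Of the co-receptors, Cdon had the largest difference in favour of NP among the 10 genes. It read 14.81, 14.56 and 14.97 log2 in NP of WT and 15.08, 14.92 and 14.89 in NP of TonEBP +/-. In AF it read 10.90, 11.58 and 12.28 in WT and 8.99, 9.96 and 9.68 in TonEBP +/-. Both NP groups overlapped and spread little (SD 0.210 and 0.101), both lay above every AF array, and AF of WT lay above AF of TonEBP +/-. NP exceeded AF by 3.93 log2 in WT (SE 0.300, adjusted p = 1.54e-08) and by 6.11 in TonEBP +/- (SE 0.300, adjusted p = 8.67e-11), 15.3- and 68.9-fold. In WT 576 of the 22206 clusters had a greater difference in favour of NP, and in TonEBP +/- 146 had. Quantile normalization took the Cdon difference to 2.39 log2 in WT and 4.98 in TonEBP +/-, and both stayed called.

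Boc, a paralogue of Cdon, showed the same order of group means, with smaller differences. It read 10.38, 10.19 and 10.59 log2 in NP of WT and 8.85, 10.03 and 9.63 in AF of WT. In TonEBP +/- it read 10.66, 10.75 and 10.55 in NP and 8.35, 8.85 and 7.99 in AF. Every NP array was above every AF array, and AF array 2 of WT, the highest AF reading, came closest to the NP arrays. The difference was 1.62 log2 in WT (SE 0.269, adjusted p = 7.77e-05) and 2.95 in TonEBP +/- (SE 0.269, adjusted p = 1.07e-07), 3.07- and 7.70-fold. Quantile normalization of all 12 arrays took the WT difference to 0.50 log2 and its adjusted p to 0.197.

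Ptch1, the receptor, read 8.96, 9.07 and 9.05 log2 in NP of WT and 8.88, 9.34 and 9.75 in NP of TonEBP +/-. In AF it read 8.23, 10.36 and 11.85 in WT and 10.17, 9.33 and 9.98 in TonEBP +/-. AF arrays of WT ran from below to above every other group, with an SD of 1.82 log2 against 0.0609 in NP of WT. The tissue difference was -0.38 log2 in WT (95% CI -1.51 to 0.75, adjusted p = 0.543) and 0.19 in TonEBP +/- (95% CI -0.94 to 1.32, adjusted p = 0.782). Its sign depended on single arrays and on scaling: without AF array 3 of WT the WT value was 0.48, without AF array 1 of WT it was -1.33 and passed the test (adjusted p = 0.0111), and the TonEBP +/- value was -0.50 as deposited.

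Smo, the signal transducer, read 7.46, 8.15 and 8.48 log2 in AF of WT and 7.68, 7.36 and 7.70 in AF of TonEBP +/-. It read 7.26, 6.66 and 6.47 in NP of WT and 6.93, 6.82 and 6.81 in NP of TonEBP +/-. Only AF arrays 2 and 3 of WT were above background. Its tissue difference was -0.49 log2 in WT (95% CI -1.09 to 0.11, adjusted p = 0.136) and -0.04 in TonEBP +/- (adjusted p = 0.919), and neither was called. As deposited both were called, at -1.23 and -0.73 log2 (adjusted p = 0.000765 and 0.0261), and the WT difference was also called without AF array 1 of WT (-0.77, adjusted p = 0.0454) or NP array 1 of WT (-0.73, adjusted p = 0.0319).

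Gli1, the Gli factor that is itself a Hedgehog target, read 8.52, 8.72 and 8.29 log2 in AF of WT and 8.06, 8.23 and 7.90 in AF of TonEBP +/-. It read 6.32, 6.56 and 6.59 in NP of WT and 6.48, 6.59 and 6.19 in NP of TonEBP +/-. The 6 AF arrays lay above the 6 NP arrays, and 5 of the 6 exceeded background while none of the NP arrays did. Against the NP background level the transcript was at least 1.47-fold lower in NP of WT (adjusted p = 9.78e-05) and at least 1.14-fold lower in NP of TonEBP +/- (adjusted p = 0.00149).

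Hhip, the membrane-anchored inhibitor that sequesters ligand, read 9.33, 10.71 and 12.19 log2 in AF of WT and 10.73, 9.64 and 9.28 in AF of TonEBP +/-. In NP it read 6.16, 6.21 and 6.18 in WT and 6.05, 6.38 and 6.03 in TonEBP +/-, below background on all 6 arrays. The AF groups overlapped each other and neither overlapped NP. Hhip was at least 6.89-fold lower in NP of WT (adjusted p = 2.61e-06) and at least 4.04-fold lower in NP of TonEBP +/- (adjusted p = 2.77e-05).

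The notochord transcription factors did not follow Shh. Noto, a homeobox factor, read 7.57, 7.69 and 7.82 log2 in NP of WT and 8.24, 8.70 and 8.06 in AF of WT. In TonEBP +/- it read 6.70, 7.49 and 6.69 in NP and 7.84, 8.41 and 7.95 in AF. As deposited the NP arrays were the lower ones, and after subtraction of the array medians the WT difference was 0.10 log2 (95% CI -0.47 to 0.67, adjusted p = 0.758) and the TonEBP +/- difference -0.41 (adjusted p = 0.203). The WT value turned to -0.64 as deposited, where it passed the test (adjusted p = 0.0438), and to -0.31 under quantile normalization. The TonEBP +/- value was called as deposited (-1.10, adjusted p = 0.00203) and without NP array 2 of TonEBP +/- (-0.68, adjusted p = 0.0307). Foxa2, a forkhead factor of the node and floor plate, read 6.54 to 7.03 in WT and 6.24 to 7.06 in TonEBP +/- in AF, and 5.59 to 6.01 and 5.89 to 6.81 in NP of the same genotypes. These readings are all below background, and the tissue differences of -0.21 and 0.46 log2 did not pass (adjusted p = 0.530 and 0.194), while as deposited the WT value was -0.95 and was called (adjusted p = 0.00675).

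**Figure D2:**
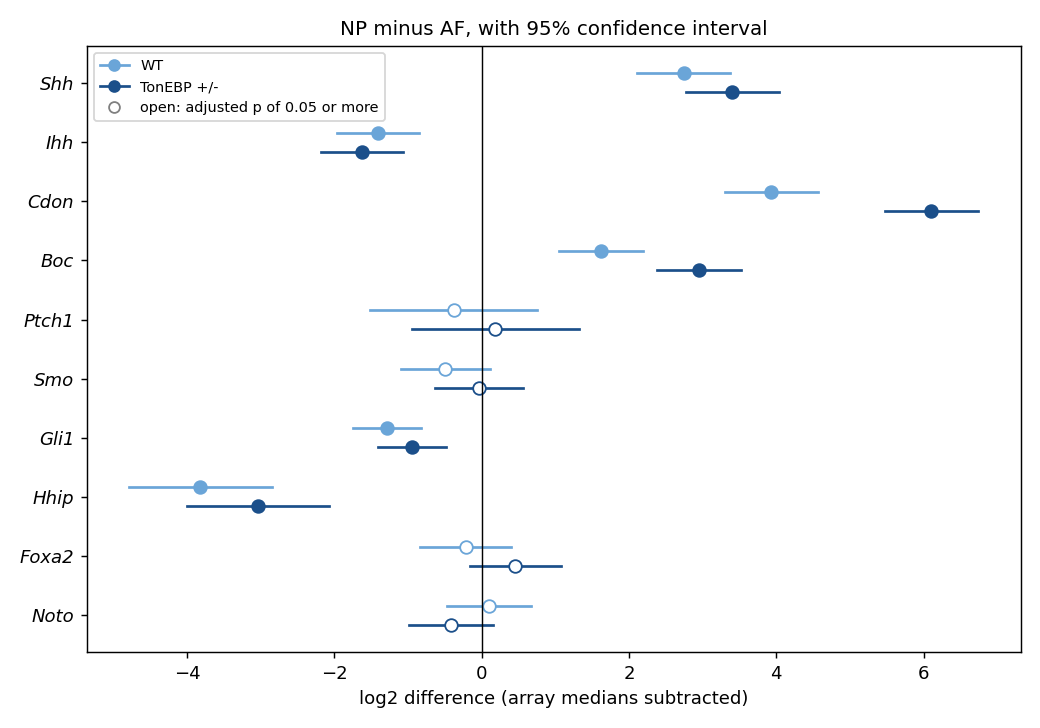
Difference between NP and AF (log2, array medians subtracted) for the 10 genes in WT and in TonEBP +/- mice; lines are 95% confidence intervals and filled points passed the test. Cdon stands farthest to the right at 3.93 and 6.11, Hhip farthest to the left, against NP signals below background, and the points of Ptch1, Smo, Foxa2 and Noto are open.

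In TonEBP +/- mice the same 6 members were called as in WT, with the same signs, beside 56.1% of all clusters called, 30.9% higher and 25.2% lower. The tissues also differed in markers of other cell types. AF held more signal than NP of the 8 hypertrophic cartilage and bone markers, all 8 called, the 6 marrow markers, all 6 called, and the 5 endothelial markers, all 5 called. Their means were 9.18 to 11.8, 14.8 to 16.7 and 7.59 to 9.37 log2 in AF and 5.23 to 5.51, 7.50 to 11.8 and 4.40 to 5.21 in NP. Of the 5 endothelial calls, 2 in WT and 1 in TonEBP +/- rest on signals below background in both tissues. Of the 8 cartilage markers, 4 were lower and 1 was higher in NP of WT, and 5 were lower and 2 higher in TonEBP +/-. Of the 6 skeletal muscle markers, 5 were lower in WT and 2 in TonEBP +/-, with 3 and 2 of these calls on signals below background. Among the 3 Schwann cell markers, 1 was higher in NP in both genotypes. The part of all these markers in the tissue differences was not tested.

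Because tissue is the largest difference among the 12 arrays, the members' profiles fell mostly into an NP-high and an AF-high pattern. Over the 12 arrays, which share tissue and genotype, Pearson's r was 0.968 between Shh and Cdon and 0.978 between Cdon and Boc. It was -0.880 between Shh and Gli1, -0.871 between Shh and Hhip and 0.887 between Gli1 and Hhip. Gli1 and Hhip were below background on every NP array, so these values rest in part on background signal. Ihh, below background on all 12 arrays, had r of -0.955 to Shh and 0.951 to Hhip. Ptch1 followed neither pattern, with r of -0.06 to Shh and 0.057 to Cdon. Smo, Foxa2 and Noto also followed neither closely, with r of -0.361, 0.124 and -0.108 to Shh and 0.343, -0.138 and 0.372 to Gli1. Among 9952 genes above background on all 3 arrays of at least 1 group, the profiles most like Shh were those of Tafa5 (0.991) and Enkur (0.988). The profiles most like Cdon were those of Col6a2 (0.991) and Nova1 (0.990), and those most like Boc were Anxa8 (0.988) and Serpina1e (0.984). Those most like Hhip were Pcsk6 (0.988) and Cnmd (0.987), and those most like Gli1 were Pglyrp2 (0.980) and Cxcl13 (0.977). Such values are common for Shh and Cdon, with which 916 and 632 genes exceeded r = 0.95. For Boc, Gli1 and Hhip the counts were lower, at 117, 25 and 22 genes. For Ptch1 the closest were 1700025G04Rik (0.878) and Ivns1abp (0.857), for Noto Cdc20b (0.828) and Chst8 (0.786), and no gene exceeded 0.95 with either.

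Other genes of the pathway were read from 5 lists. Of 42 measured, 24 were higher and 11 lower in NP of WT, beside 33.6% and 31.1% of all clusters, with a median difference of 0.90 log2 beside -0.10 over all clusters. Under quantile normalization 20 were higher and 7 lower, and as deposited 15 were higher and 16 lower. The excess of higher calls thus depends on the scaling and was absent as deposited. In TonEBP +/- mice 26 were higher and 10 lower, beside 30.9% and 25.2% of all clusters. These counts were 21 and 9 under quantile normalization and 16 and 14 as deposited. Among 6 genes of other ligands and of ligand processing and release, 2 were higher and 2 lower. Disp1, the transporter that releases lipid-modified Hedgehog from the producing cell, was 61.9-fold higher in NP (log2 5.95, SE 0.307, adjusted p = 2.06e-10). Scube2, a secreted protein that aids that release, was at least 2.69-fold higher (adjusted p = 4.95e-06). Its relative Scube1 was at least 1.79-fold lower (adjusted p = 0.000163), and the other lower gene, the ligand Dhh, was above background on 0 of these arrays.

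Among 4 further surface proteins, 2 were higher and 1 was lower. The glypican Gpc3, which binds Hedgehog at the cell surface and competes with Ptch1 for it, had a log2 difference of 8.92 (SE 0.382, adjusted p = 3.69e-11), and since it was above background on 1 of 3 AF arrays its fold is not exact. The co-receptor Gas1 was 7.66-fold higher in NP (log2 2.94, SE 0.379, adjusted p = 6.05e-06). The endocytic receptor Lrp2 was called lower on signals below background.

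Among 15 genes of signal transduction and Gli processing, 12 were higher and 1, Gli2, was lower on signals below background. The kinases Csnk1a1 and Prkacb, which phosphorylate Gli proteins, were 12.5- and 9.85-fold higher in NP (adjusted p = 8.68e-09 and 1.19e-08). Spop, an adaptor for Gli degradation, was 4.51-fold higher (adjusted p = 6.95e-06). Gli3, which can act as the pathway's repressor, was at least 2.52-fold higher (adjusted p = 2.48e-05). Taken as deposited, 6 of the 15 were higher and 2 lower, and under quantile normalization 10 were higher and 1 lower, so the count for this list depends on the scaling.

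Of 8 genes of ciliary transport, 7 were higher in NP and the remaining one, Ift88, had a difference of 0.60 log2 that did not pass and was -0.14 as deposited. Ift122, Kif3a, Ift172 and Dync2h1, which carry cargo along the cilium, were at least 3.91-, 2.08-, 3.02- and 1.75-fold higher (adjusted p = 8.00e-09 to 0.000131). In TonEBP +/- all 8 were called higher. As deposited 5 were higher and none lower in WT, and under quantile normalization 6 were higher and none lower.

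Of 9 further Hedgehog target genes, 1 was higher and 7 were lower in NP, but 6 of the 7 lower ones, with Nkx3-2, Foxc2, Foxf2 and Mycn the farthest below 0, were above background on 0 arrays of either WT group. The exception, the survival factor Bcl2, was 1.76-fold lower in NP (log2 difference -0.81, SE 0.342, adjusted p = 0.0471). The cyclin Ccnd2 was 1.87-fold higher in NP (adjusted p = 0.00602), a difference that turned to -0.07 log2 under quantile normalization.

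Of 8 other genes of the notochord and node, 5 were higher and 3 lower in NP of WT, beside 33.6% and 31.1% of all clusters. As deposited 3 were higher and 3 lower, and under quantile normalization 4 were higher and 1 was lower. Sox6, Sox9 and Sox5, which act in notochord sheath and cartilage formation, were 12.7-, 10.9- and 2.11-fold higher (adjusted p = 9.32e-09, 1.26e-06 and 0.00192). The bone morphogenetic protein antagonist Chrd had a log2 difference of 2.63 (adjusted p = 3.59e-07), which is not exact since it was above background on 2 of 3 AF arrays. The Sox5 difference turned to -0.12 log2 under quantile normalization. Foxa1, Nog, Gsc and Mnx1 were called on signals below background on all arrays of both WT groups.

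**Figure D3:**
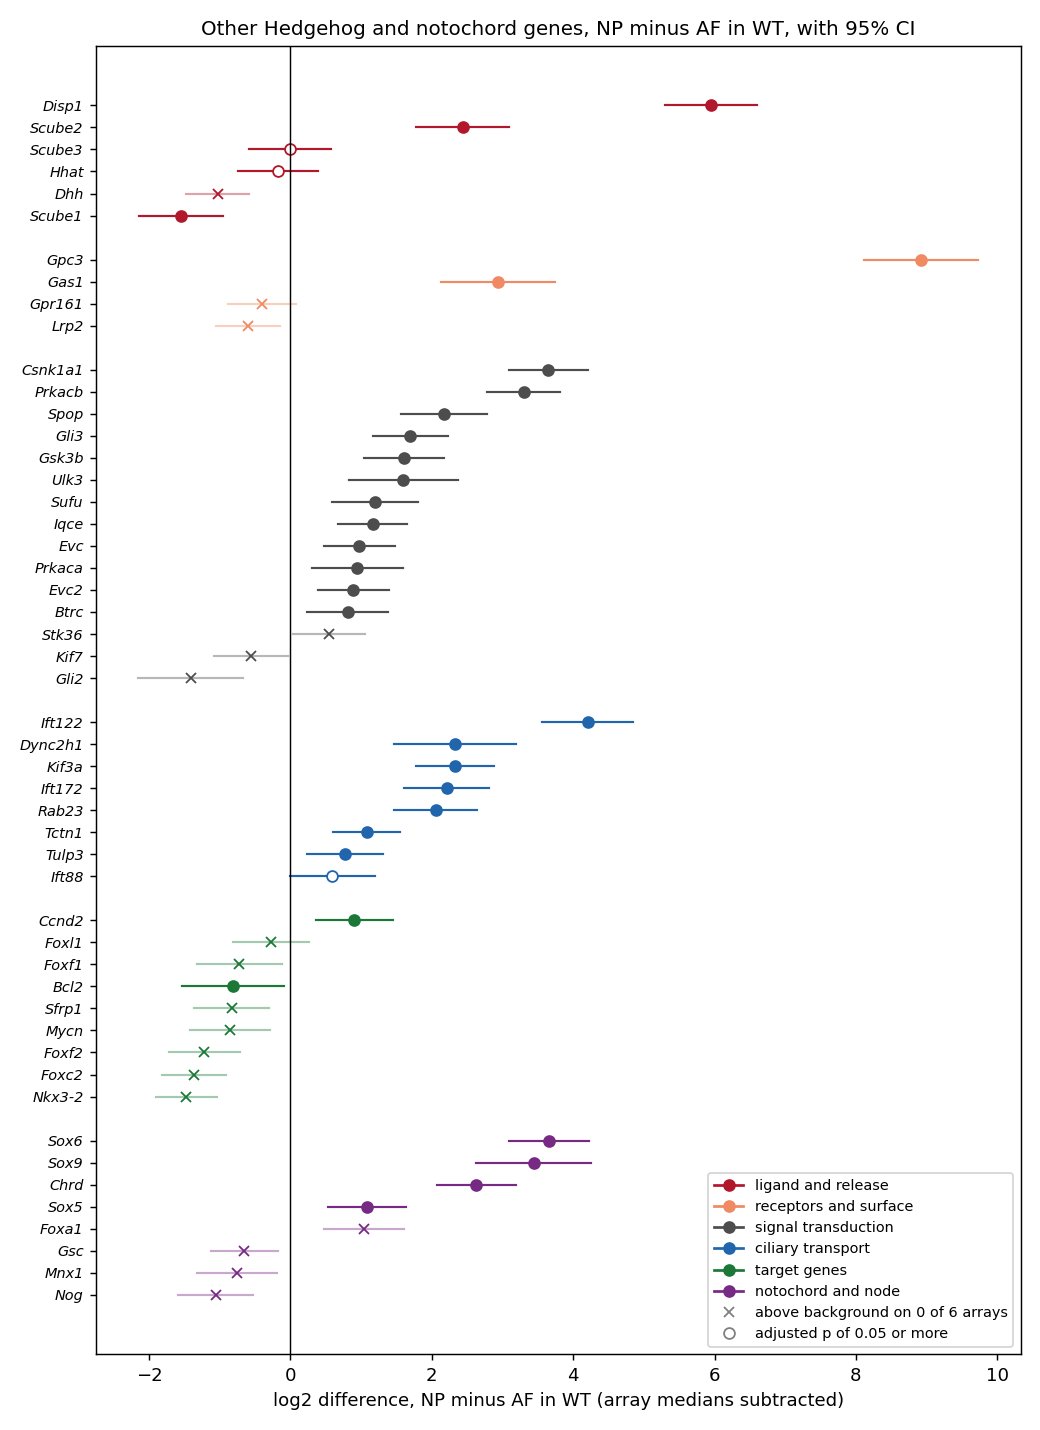
Difference between NP and AF in WT (log2, array medians subtracted, with 95% confidence intervals) for 42 other Hedgehog pathway genes and 8 notochord and node genes, coloured by role. Ciliary genes all lie above 0, Gpc3 (8.92) and Disp1 (5.95) stand farthest to the right, and crosses mark the 17 genes below background on all 6 arrays, 7 of them target genes.

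The second question is what the loss of a TonEBP copy goes with in each tissue. In AF, Cdon was 4.11-fold lower in TonEBP +/- mice than in WT, and it was the member called: 1 of 10, beside 0.671% of all clusters called and 0.356% called lower. Its log2 difference was -2.04 (SE 0.341, 95% CI -2.76 to -1.32, limma adjusted p = 0.0195), every TonEBP +/- array lay below every WT array, and 15 of the 22206 clusters had a lower value. The share of called clusters that were higher was 47.0%, and 35.7% under quantile normalization. The fit pools the spread of all 12 arrays, and the SD of Cdon was 0.693 and 0.499 in AF of WT and TonEBP +/-, against 0.210 and 0.101 in NP. From the AF arrays alone, with 4 residual degrees of freedom, the call was lost (adjusted p = 0.0961), and 3 clusters in all were called. The call was also lost without AF array 2 or 3 of WT or array 1 of TonEBP +/- (adjusted p = 0.143, 0.121 and 0.126). Across all alternatives the Cdon value stayed between -2.46 and -1.69.

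Several cell type markers moved between these same AF arrays. The mean of the 8 hypertrophic cartilage and bone markers was 9.89, 9.18 and 10.1 log2 in WT and 11.8, 10.8 and 11.8 in TonEBP +/-, with 2 called higher (Mmp13, 11.5-fold, and Ibsp, 7.99-fold). The 6 marrow markers averaged 15.0, 14.8 and 15.5 in WT and 16.2, 15.97 and 16.7 in TonEBP +/-, with 0 called in AF. The 9 AF and tendon markers averaged 11.5 to 12.1 in WT and 12.1 to 12.5 in TonEBP +/-, with the collagen genes Col1a1 (log2 difference 4.18) and Col1a2 (3.70) higher and Fmod (-2.11) lower. The 5 endothelial markers averaged 7.59 to 8.30 and 8.22 to 9.37, with 0 called. Of the 8 cartilage markers Acan was 4.09-fold lower and none was higher, and their means were 10.9, 12.4 and 12.5 in WT and 11.9, 11.2 and 11.1 in TonEBP +/-. What part these markers have in the Cdon difference was not tested.

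NP signal also varied among the AF arrays, and Cdon is an NP-high transcript. The 8 NP markers averaged 12.8, 10.7 and 10.7 log2 in AF of WT and 10.4, 10.4 and 11.3 in AF of TonEBP +/-, with 0 of 8 called. This mean includes Aqp1, which was lower in NP than in AF. On the same arrays Cdon read 10.90, 11.58 and 12.28 in WT and 8.99, 9.96 and 9.68 in TonEBP +/-. Acan and Fmod, from the other lists, were also higher in NP than in AF and were called lower in AF of TonEBP +/-. Without AF array 1 of WT the Cdon difference was -2.39 log2 (limma adjusted p = 0.00683). The part of NP signal in the Cdon difference was not tested.

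The other co-receptor and the ligand had values below 0 in AF without passing the test. Boc had a difference of -1.11 log2 (SE 0.318, 95% CI -1.78 to -0.44, adjusted p = 0.0810), with the groups apart by 0.0012 log2 between AF array 1 of WT and AF array 2 of TonEBP +/-. It passed in the unweighted fit (adjusted p = 0.0381) and without AF array 2 of TonEBP +/- (adjusted p = 0.0201). Shh had a difference of -0.78 log2 (95% CI -1.51 to -0.04, adjusted p = 0.255), with its lowest reading, 7.71, below background, and Gli1 one of -0.45 (95% CI -0.99 to 0.09, adjusted p = 0.379). For Shh, Cdon, Boc and Gli1 all TonEBP +/- arrays lay below all WT arrays, as they did for 12.3% of all clusters.

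The remaining members overlapped between the genotypes in AF. Hhip had a difference of -0.86 log2 (95% CI -1.96 to 0.24, adjusted p = 0.413) and Ptch1 one of -0.32 (95% CI -1.59 to 0.95, adjusted p = 0.834). The Ptch1 value was 0.53 without AF array 3 of WT and -1.28 at the lowest of the omissions. Within WT both Hhip and Ptch1 were lowest on AF array 1 and highest on AF array 3, as were Cdon, Smo and, below background, Ihh. On AF array 1 of WT the cartilage mean was lowest and the NP mean highest, and their part in these values was not tested. Smo, Noto, Foxa2 and Ihh had differences of -0.45, -0.27, -0.24 and 0.05 log2, with adjusted p from 0.493 to 0.955. In all, 9 of the 10 members had a value below 0, and 57.7% of all clusters had a value below the 0.05 of Ihh, the remaining member. The median of the 10 was -0.45 log2 beside -0.04 over all clusters. Foxa2 was above background on 0 AF arrays, and Smo on 0 of those of TonEBP +/-.

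**Figure D4:**
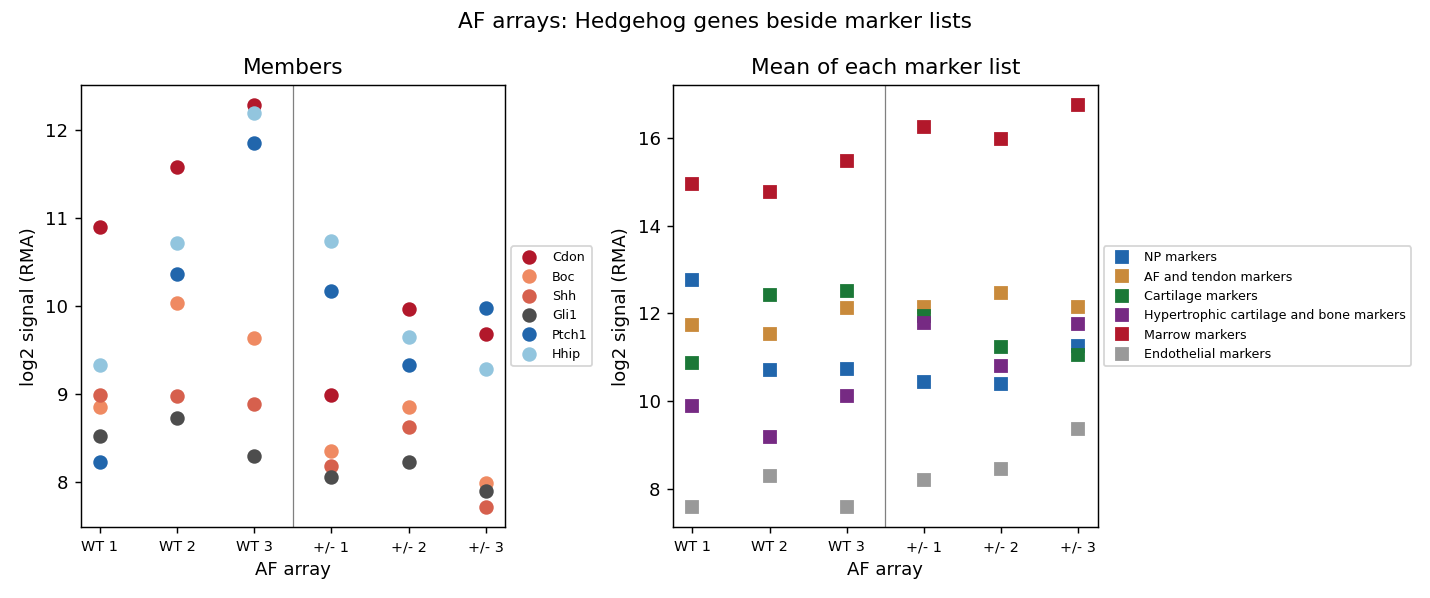
Log2 signal on the 6 AF arrays of 6 Hedgehog genes (left) and the mean of 6 marker lists (right), WT left of the line and TonEBP +/- right of it. Cdon is lower on all 3 TonEBP +/- arrays, Ptch1 and Hhip span the widest range within WT, and the marrow and the hypertrophic cartilage and bone means are higher on all 3 TonEBP +/- arrays.

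In NP, 0 of the 10 members passed the limma test between genotypes, beside 0.365% of all clusters called. At an unadjusted p under 0.05 there was 1 member, Noto, beside 1443 of all 22206 clusters. Noto differed by -0.73 log2 (SE 0.232, 95% CI -1.22 to -0.24, unadjusted p = 0.00607, adjusted p = 0.378 and between 0.172 and 0.977 over the alternatives). All 3 TonEBP +/- arrays lay below all 3 WT arrays, as for 5.93% of all clusters, and 1 of the 3 was above background. Shh, Cdon and Boc, the NP-high members, had differences of -0.07 (95% CI -0.61 to 0.48), 0.18 (95% CI -0.35 to 0.71) and 0.27 log2 (95% CI -0.23 to 0.76), intervals that lie within a 2-fold change on either side. Ptch1 had a difference of 0.30 (95% CI -0.64 to 1.24). Hhip, Gli1, Smo, Ihh and Foxa2 were at or below background in NP, with differences of -0.03, -0.07, 0.05, -0.11 and 0.48 log2. In these NP samples the 6 marrow markers averaged 10.2 to 11.8 log2 in WT and 7.50 to 8.74 in TonEBP +/-, all 6 called lower, and their part in the members' values was not tested.

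The genotype difference itself differed between the tissues for Cdon. The difference in NP minus that in AF was 2.22 log2 (SE 0.423, 95% CI 1.33 to 3.12, limma adjusted p = 0.0257), the 1 member of 10 called, beside 0.874% of all clusters. Of called clusters 14.9% had a value above 0, and 29.2% under quantile normalization. The call was lost when any of 7 of the 12 arrays was left out, with adjusted p between 0.0515 and 0.119 there: AF arrays 2 and 3 of WT, AF arrays 1 and 3 of TonEBP +/-, NP array 2 of WT and NP arrays 1 and 2 of TonEBP +/-. The value itself ran from 1.88 to 2.60 over all alternatives. For Boc it was 1.38 log2 (SE 0.394, 95% CI 0.54 to 2.21, adjusted p = 0.113), and it passed without AF array 2 of TonEBP +/- (adjusted p = 0.0344). The values of Hhip (0.83), Foxa2 (0.72), Shh (0.71), Ptch1 (0.62), Smo (0.51), Gli1 (0.38), Ihh (-0.16) and Noto (-0.46) did not pass, with adjusted p from 0.464 to 0.899. This comparison shares its arrays with those within each tissue, so it is not a separate measurement of Cdon.

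**Figure D5:**
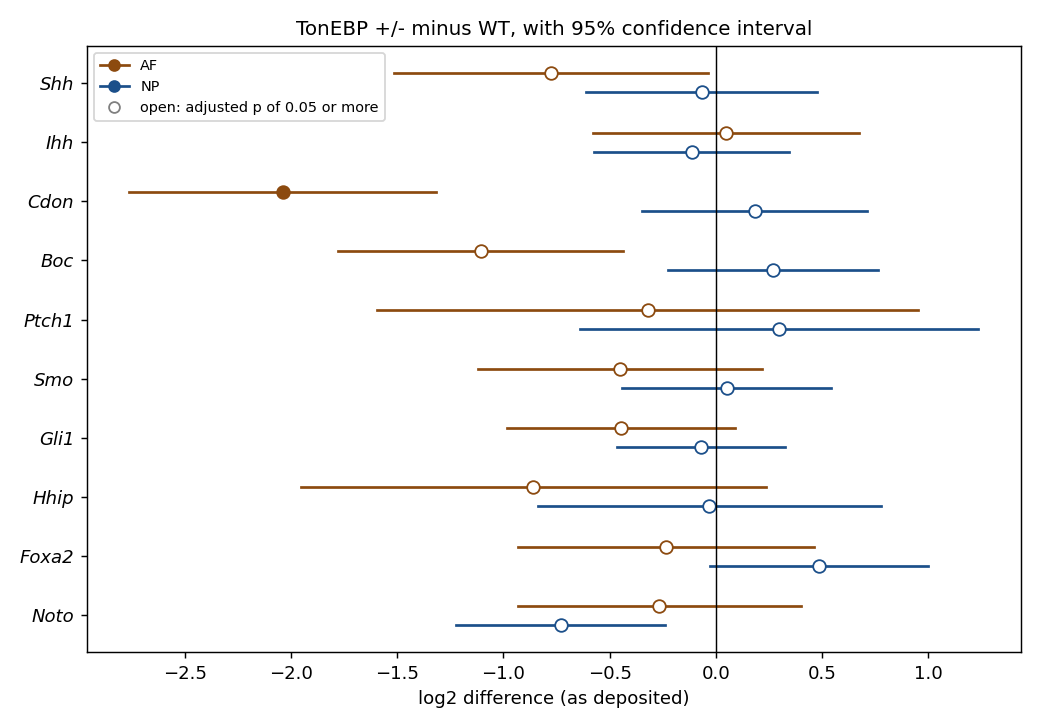
Difference between TonEBP +/- and WT (log2) for the 10 genes in AF and in NP; lines are 95% confidence intervals, and the filled point, Cdon in AF at -2.04, is the one that passed the test. In NP the points lie between -0.73 (Noto) and 0.48 (Foxa2).

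Beyond the members, 0 of the 42 other Hedgehog genes and 0 of the 8 other notochord genes were called between genotypes in either tissue. In AF 28 of the 42 had a value below 0 and 14 above, with a median of -0.16 log2 beside -0.04 over all clusters. With array medians subtracted, or under quantile normalization, 17 were above 0. All 6 ligand and release genes and all 4 surface proteins were among those below 0, with medians of -0.37 and -0.52. Of these, 2 ligand and release genes and 2 surface proteins were above background on 0 AF arrays. Signals were likewise below background on all AF arrays for 7 of 15 signal transduction genes, 6 of 8 ciliary genes and 7 of 9 target genes. In NP 15 of the 42 had a value below 0, and the median was 0.10 beside 0.01.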

How the data were processed

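The deposited log2 values, 1 per probe set and array, were made by the authors with RMA in Affymetrix Expression Console, per the submitters' processing notes, which give no versions; which arrays were normalized together is not given in the sources used here. Arrays were Clariom S Mouse, hybridized with biotin-labelled cDNA, per the labels' protocols. Of 28846 probe sets, 6640 controls were left out and 22206 clusters tested. Symbols came from the array's gene table (19572 clusters with 1 symbol, 2634 with none). Promoter sequences are RefSeq's, GRCm38.p6.

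A mean for each of 4 groups was fitted to 12 arrays in R 4.3.3 with limma 3.58.1 (lmFit, eBayes, 8 residual degrees of freedom, Benjamini-Hochberg over all clusters). Arrays were weighted by tissue (0.738 in AF, 1.35 in NP), because earlier results had shown more spread in AF. Genotype and interaction used values as deposited; tissue comparisons used values less each array's median. The labels tie no samples together, so no block was used. P-values measure the spread among the 3 samples of each group, pooled over all 12 arrays. Those in AF therefore also draw on the spread in NP, adjusted only by 1 weight per tissue. Where a group was above background on 0 of 3 arrays, a fold is a bound, against the higher of each array's background level and the gene's own signal.

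Members and lists were chosen with earlier results of these data known. All members are named in each comparison, and from each other list up to 4 called genes with the largest change; Ift88, Gli2, Bcl2, Ccnd2, Foxa1, Nog, Gsc and Mnx1 are named to complete a count, and Krt19 after its values were seen. No 2 arrays were duplicates (smallest SD of their difference 0.414 log2), and replicates correlated at 0.942 to 0.988. The fit was tested on simulated data with each gene's own spread in each tissue: in AF it recovered 94.0% of genes changed by 2 log2 and 17.9% of those changed by 1, and in NP 95.5% and 62.7%, while 15.9% and 20.8% of all simulated calls were of unchanged genes, above the 5% aimed at, so calls between genotypes are less sure than their adjusted p. Alternatives were an unweighted fit, 1 tissue alone, other scalings, a filter on dim clusters and leaving out each array. Figures used Python 3.11.15 with matplotlib 3.10.9.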

Additional observations from a re-analysis of the deposited data

Results flagged for a closer look

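The genotype difference of Cdon is set out here because a test of the difference between the tissues themselves passed: the TonEBP +/- minus WT value in NP exceeded that in AF by 2.22 log2 (SE 0.423, limma adjusted p = 0.0257), with -2.04 in AF and 0.18 in NP. All 3 AF arrays of TonEBP +/- lay below all 3 AF arrays of WT, and in NP the groups overlapped. The call between the tissues held in 5 of the 12 fits that left out 1 array. From the AF arrays alone the AF difference was not called (limma adjusted p = 0.0961).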

How the results depend on the processing

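Every alternative was run except the mean over a gene's clusters, since each member had 1. No paired analysis was possible because the labels give no replicate numbers that tie samples together. In AF the members called were 2 in the unweighted fit and 0 from the AF arrays alone (0 to 2 leaving out 1 array), and the clusters called were 1347 and 3, 546 under quantile normalization, and 6 to 2404 leaving out 1 array, with the fewest without AF array 2 of WT and the most without AF array 2 of TonEBP +/-. In NP 25 clusters were called in the unweighted fit and 0 from the NP arrays alone (11 to 154 leaving out 1 array). For the interaction, 0 to 2 members and 1 to 1095 clusters were called leaving out 1 array. In the tissue comparisons 6 to 8 members were called in WT and 6 to 7 in TonEBP +/- leaving out 1 array. Among the members, the signs that turned were of values not called in the main setting; among the other pathway and notochord genes called there in a tissue comparison, Gsk3b in TonEBP +/- turned from 0.77 to -0.61 under quantile normalization, as did Ccnd2 and Sox5 in WT (0.90 to -0.0652 and 1.08 to -0.12). Hhip in NP turned to 0.00901 with array medians subtracted and 0.0185 under quantile normalization. The tissue difference in WT turned to 0.12 for Foxa2 and -0.31 for Noto under quantile normalization and to -0.64 for Noto as deposited. In TonEBP +/- it turned to -0.50 and -0.62 for Ptch1 (as deposited, quantile) and -0.23 for Foxa2 as deposited. Leaving out 1 array, genotype values ran from -0.16 to 0.24 (Ihh) and -1.28 to 0.53 (Ptch1) in AF. In NP they ran from -0.29 to 0.17 (Shh), -0.20 to 0.0515 (Ihh), -0.11 to 0.29 (Smo), -0.15 to 0.047 (Gli1) and -0.14 to 0.0306 (Hhip). Interaction values ran from -0.36 to 0.0428 (Ihh) and -0.23 to 1.57 (Ptch1). Tissue differences ran from -1.33 to 0.48 (Ptch1) and -0.0288 to 0.27 (Noto) in WT, and from -0.10 to 0.40 (Ptch1) and -0.19 to 0.0669 (Smo) in TonEBP +/-. The cause of these changes was not tested. Signal over background limits Ihh, Foxa2, Smo, and Gli1 and Hhip in NP.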
